A study of Oryza sativa with 8 samples.

Results

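Lectins are proteins that bind sugars, and in plants many of them sit outside the cell as the sensing end of a receptor kinase. The lectin-domain genes of rice were taken as the loci whose annotation in the deposited table holds the word lectin, curculin-like or mannose-binding, in any case of letters, leaving out pectin and chitinase entries. That text matched 107 transcript models at 100 loci. At each locus the model with the highest mean was kept, and 82 loci reached a deposited value of 1 or more in at least 2 of the 8 libraries, out of 31487 loci that did so in the whole table. Of the 18 matched loci below that floor, 4 had no reads in any library. Of the 82, 66 were at 1 or more in all 8 libraries, and 1 reached 1 in Nipponbare libraries only. Just inside the floor stood Os04t0109500-01, Os07t0129800-00 and Os09t0349600-01, with 1.09, 1.15 and 1.18 in their second-highest library. Just outside stood Os09t0535400-00, Os03t0245500-01 and Os11t0609500-01, with 0.881, 0.782 and 0.724.

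Transcripts were sequenced from total RNA of tissue labelled shoot apical meristem of rice (Oryza sativa), the dome of dividing cells that forms leaves and later the panicle. There were 2 libraries of the cultivar Nipponbare and 3 of GW6a-4.6, a chromosome segment substitution line in which Nipponbare carries a piece of the Kasalath genome. The other 3 were labelled OsglHAT1-OE, transgenic plants in the same Nipponbare background, so all 3 groups share that genome. GW6a and OsglHAT1 are names of 1 gene on chromosome 6, which encodes a histone acetyltransferase, and both lines address what it does to other transcripts. The labels give no age, no promoter for the transgene and no number of plants or transgenic events behind a library, so p-values measure the spread between these libraries, which may be technical.

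The deposited values are on a reads-per-million scale, described here as values. Library totals, inferred from the value of 1 read, were 5207710 to 7667853 reads, and 3 reads were worth 0.391 to 0.576. The GW6a transcript, Os06t0650300-00, stood at 1.88 ± 0.595 (SD, n = 2) in Nipponbare, 2710 ± 179 (SD, n = 3) in GW6a-4.6 and 10.7 ± 2.25 (SD, n = 3) in OsglHAT1-OE. The libraries labelled OsglHAT1-OE therefore held 5.68 times the Nipponbare level of that transcript, but GW6a-4.6 held 253 times what they did, which goes against the label if overexpression is taken to mean the higher level of the 2 lines. Whether the deposited model counts the transcript of the transgene was not tested. The lines are therefore named by their labels below, and no direction is read as a dose of GW6a. OsglHAT1-OE replicate 3 stood apart. If the inferred library totals are right, each of its reads was counted at 2.41 models on average, where the range elsewhere was 2.66 to 2.69. That reads were counted at several models was not observed directly. Of the meristem markers, the homeobox genes OSH1 and OSH15 averaged 31.7 and 48.7 in Nipponbare, 98.0 and 169 in GW6a-4.6 and 106 and 94.9 in OsglHAT1-OE. FON1, a meristem receptor kinase, averaged 88.6, 78.0 and 105 in the same order, and LAX1, which marks axillary meristems, was below the floor at a mean of 0.343. Of 13 leaf markers matched, 11 were tested. The summed level of these 11 was 2656 to 2972 in Nipponbare, 2086 to 2643 in GW6a-4.6 and 2664 to 3229 in OsglHAT1-OE. Of the 11, 1 rose and 3 fell in GW6a-4.6 while 3 rose and 2 fell in OsglHAT1-OE. Of 8 root markers matched, 7 were tested, with a summed level of 204 to 206, 184 to 188 and 203 to 232 in the same order. Of the 7, 1 rose and 1 fell in GW6a-4.6 and 4 rose and 1 fell in OsglHAT1-OE. Of all loci, 26.7% rose and 19.5% fell in GW6a-4.6, and 22.8% rose and 29.7% fell in OsglHAT1-OE. The marker changes moved with the groups, and their part in the results below was not tested. In such bulk tissue, fewer cells of a type and less RNA per cell cannot be told apart.

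Plant lectins are grouped by the fold of the sugar-binding domain. Bulb-type (curculin-like) and legume-type domains occur in soluble lectins and, joined to a membrane span and a kinase, in receptor kinases that sense molecules of microbes or of damaged cells. Jacalin-related, ricin-B-type and chitin-binding lectins are mostly soluble, and several are induced by stress or protect against insects and fungi. By annotation the 82 loci held 17 bulb-type, 20 legume-type, 20 concanavalin A-like fold, 6 jacalin-related, 4 ricin-B-type, 3 malectin-like and 2 C-type members, 7 named as lectins outside these classes and 3 plectin-related loci. The plectin-related loci were matched only because plectin, a linker of the animal cytoskeleton, contains the letters of lectin, and they are described apart.

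Lectin-domain loci rose and fell side by side in both lines. In GW6a-4.6, 27 of the 82 rose and 22 fell (limma, adjusted p under 0.05 over all tested loci). These 49 were 59.8% of the members against 46.3% of all loci called, with 32.9% higher against 26.7% and 26.8% lower against 19.5%. Among them, 25 changed by a log2 of 1 or more, which was 30.5% of the members against 16.9% of all loci. In OsglHAT1-OE, 20 rose and 32 fell, or 63.4% called against 52.5% of all loci, 24.4% higher against 22.8% and 39.0% lower against 29.7%. A log2 change of 1 or more was reached by 29 of these, 35.4% of the members against 21.3% of all loci. The libraries of the groups did not overlap at 61 members in each line, 74.4%, where 64.5% and 66.9% of all loci did so in GW6a-4.6 and OsglHAT1-OE. The median log2 change of the members was 0.07 in GW6a-4.6, where that of all loci was also 0.07, and -0.28 in OsglHAT1-OE, where that of all loci was -0.08. Both comparisons use the same 2 Nipponbare libraries.

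Set against GW6a-4.6 directly, OsglHAT1-OE had 6 members higher and 33 lower, so 47.6% were called where 32.4% of all loci were. The higher share was 7.32% against 7.69% of all loci, and the lower share 40.2% against 24.7%. Differences of a log2 of 1 or more were called at 14 members, 17.1% against 7.88%, and the groups did not overlap at 48, which was 58.5% of the members against 42.7% of all loci. This split depended in part on the scaling between libraries. With median-ratio scaling, 10 members were higher and 28 lower, or 34.1% lower against 18.6% of all loci, and with quantile normalization 13 were higher and 21 lower, or 25.6% lower against 16.5%. Median-ratio scaling moved the median of all loci in this comparison by 0.14 on the log2 scale and quantile normalization moved it by 0.19. Relative to the median of all loci, the members' median was -0.18 as deposited, -0.19 with median-ratio scaling and -0.15 with quantile normalization. Without OsglHAT1-OE replicate 3, 8 members were higher and 25 lower, and against Nipponbare 21 were higher and 30 lower. Across the 3 comparisons, 67 of the 82 members were called at least once. The share of all loci called at least once was not counted, so this number has no baseline.

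**Figure D1:**
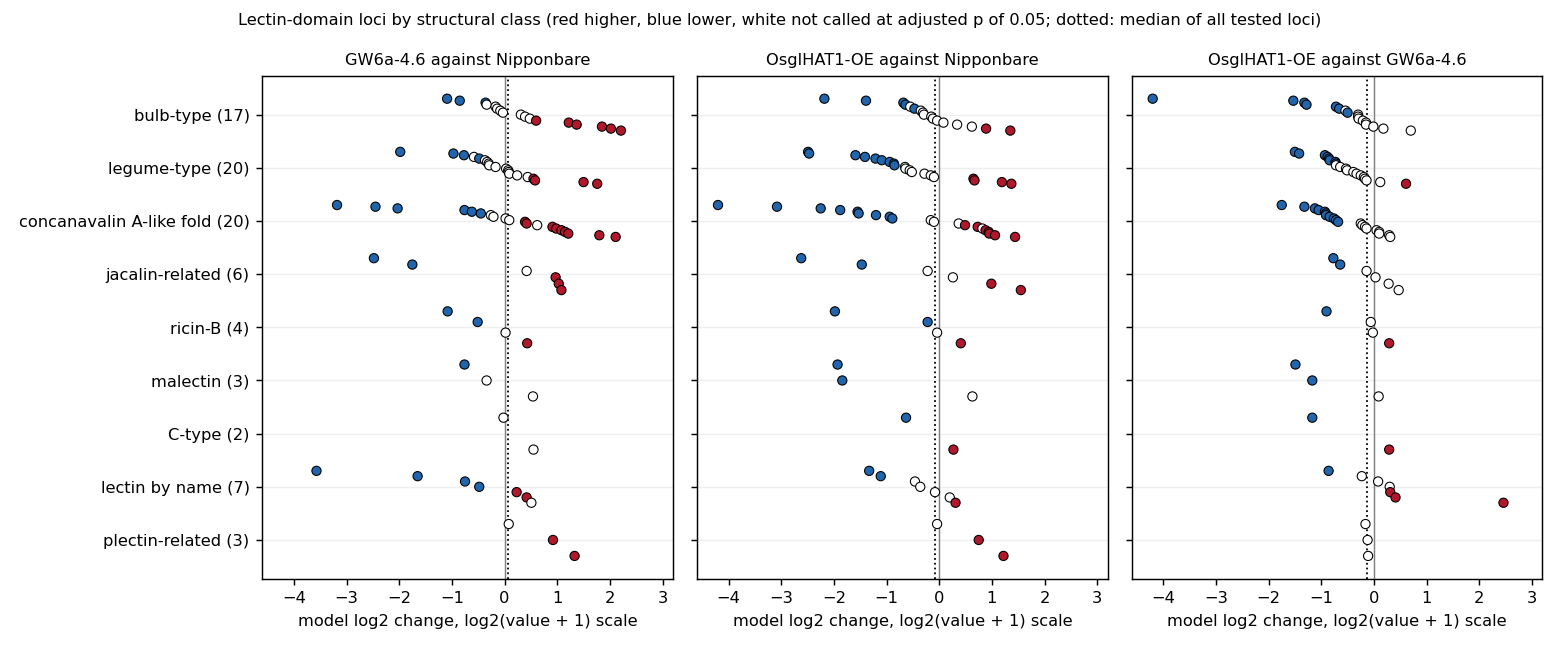
Model log2 change (x axis, log2 of value plus 1) of each of the 82 lectin-domain loci (points), by structural class (rows, number of members in parentheses) for the 3 comparisons, with red points called higher, blue called lower, white not called, and the dotted line at the median of all tested loci. Red and blue points both occur in 6 of the 9 classes in GW6a-4.6 and in 7 in OsglHAT1-OE against Nipponbare, while 33 of the 39 called points between the lines are blue.

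Bulb-type members, whose domain is known from mannose-binding lectins of flower bulbs, split both ways in each line. Of 17, 6 rose and 3 fell in GW6a-4.6 (median log2 change 0.31), and 2 rose and 5 fell in OsglHAT1-OE (median -0.29). The lower shares, 17.6% and 29.4%, were near the 19.5% and 29.7% of all loci, and the higher shares were 35.3% and 11.8% against 26.7% and 22.8%. Between the lines none was higher and 7 were lower in OsglHAT1-OE, or 41.2% lower against 24.7% of all loci, of which 7.69% were higher. With median-ratio scaling 1 was higher and 5 were lower, and with quantile normalization 2 were higher and 4 lower. Os01t0958200-01, a curculin-like protein, was the only one of the 82 members called in opposite directions in the 2 lines. The share of all loci called in opposite directions was not counted, so this has no baseline. The values of Os01t0958200-01 were 21.6 and 21.1 in Nipponbare, 87.1, 83.3 and 99.6 in GW6a-4.6, and 2.35, 5.48 and 4.57 in OsglHAT1-OE. Every GW6a-4.6 library lay above and every OsglHAT1-OE library below both Nipponbare libraries. The mean rose 4.21-fold in GW6a-4.6 (log2 change 2.02 ± 0.20 SE, adjusted p = 1.4e-10) and fell 5.18-fold in OsglHAT1-OE (-2.18 ± 0.20, adjusted p = 1.51e-11). The lines differed by 21.8-fold (log2 difference -4.20 ± 0.18, adjusted p = 1.27e-20). All 3 calls held under the 18 alternatives, with the difference between the lines at -4.39 to -3.73.

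Os12t0130200-00, annotated like a D-mannose-binding lectin, had the largest rise of any member in GW6a-4.6 on the log2(value + 1) scale. It read 4.39 and 4.22 in Nipponbare, 25.3, 22.6 and 22.6 in GW6a-4.6, and 7.78, 11.1 and 7.96 in OsglHAT1-OE. The 3 groups did not overlap, with OsglHAT1-OE between the other two. The rise was 5.46-fold in GW6a-4.6 (log2 change 2.21 ± 0.22, adjusted p = 1.2e-10) and 2.08-fold in OsglHAT1-OE (0.89 ± 0.22, adjusted p = 0.0009). Os06t0551800-01 followed the same order, from 4.10 and 4.99 in Nipponbare to 21.1, 17.6 and 18.1 in GW6a-4.6 and 15.0, 11.7 and 12.7 in OsglHAT1-OE. It rose 4.16-fold (log2 change 1.85 ± 0.22, adjusted p = 3.97e-09) and 2.89-fold (1.35 ± 0.22, adjusted p = 1.73e-06). Its difference between the lines (adjusted p = 0.0441) was lost in 10 of the 18 alternatives. Os11t0133300-01 was high in GW6a-4.6 alone, at 12, 8.79 and 14.3 against 4.10 and 4.61 in Nipponbare and 5.14, 2.61 and 2.65 in OsglHAT1-OE. It rose in GW6a-4.6 (log2 change 1.22 ± 0.28, adjusted p = 0.000411), overlapped Nipponbare in OsglHAT1-OE (-0.31 ± 0.28, adjusted p = 0.375) and was lower in OsglHAT1-OE than in GW6a-4.6 (-1.53 ± 0.25, adjusted p = 6.8e-06).

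Os02t0464400-01, the bulb-type member with the highest mean beside Os01t0958200-01, fell in both lines by less. It stood at 55.9 and 59.9 in Nipponbare, 41.9, 45.1 and 48.2 in GW6a-4.6, and 38.7, 38.5 and 33.3 in OsglHAT1-OE. The groups did not overlap, and the log2 change was -0.36 ± 0.13 (adjusted p = 0.0286) in GW6a-4.6 and -0.64 ± 0.13 (adjusted p = 0.000118) in OsglHAT1-OE. Leaving out either Nipponbare library or GW6a-4.6 replicate 1 or 2 ended the first of these calls, with an adjusted p of up to 0.187. Across the class, log2 changes ran from -1.09 to 2.21 in GW6a-4.6 and from -2.18 to 1.35 in OsglHAT1-OE. The low end in GW6a-4.6 was Os04t0632600-00 (-1.09 ± 0.27, limma, adjusted p = 0.000856), chosen after its values were seen. It also fell in OsglHAT1-OE (-1.39 ± 0.27, adjusted p = 3.17e-05). The counts for the class include further called members, higher and lower, that are not described singly.

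Legume-type lectin receptor kinases include, in Arabidopsis, a sensor of extracellular ATP. Of 20, 4 rose and 4 fell in GW6a-4.6 (median log2 change -0.07), 4 rose and 9 fell in OsglHAT1-OE (median -0.64), and 1 was higher and 8 lower in OsglHAT1-OE than in GW6a-4.6. In GW6a-4.6, 20.0% rose and 20.0% fell, where 26.7% and 19.5% of all loci did. In OsglHAT1-OE against Nipponbare, the higher share of 20.0% was near the 22.8% of all loci, and the lower share was 45.0% against 29.7%. Between the lines 5.0% were higher and 40.0% lower, where 7.69% and 24.7% of all loci were. There, 1 was higher and 6 were lower with median-ratio scaling, 1 and 4 with quantile normalization, and 1 and 5 with DESeq2. Of the 15 whose annotation names a receptor kinase, 3 rose and 4 fell in GW6a-4.6 (median -0.30), 3 rose and 8 fell in OsglHAT1-OE (median -0.85), and none was higher and 8 were lower between the lines. For the 15, the shares were 20.0% higher and 26.7% lower in GW6a-4.6, 20.0% and 53.3% in OsglHAT1-OE, and 53.3% lower between the lines. Of the 5 without the word kinase, 1 rose and none fell in GW6a-4.6, and 1 rose and 1 fell in OsglHAT1-OE, where 1 locus is 20.0% of the 5.

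The kinase Os07t0133000-01 rose in both lines. Its values were 6.87 and 5.18 in Nipponbare, 23.2, 24.5 and 20.5 in GW6a-4.6, and 17.6, 17.0 and 16.7 in OsglHAT1-OE. Both lines lay wholly above Nipponbare, by 3.77-fold (log2 change 1.76 ± 0.20, adjusted p = 1.88e-09) and 2.83-fold (1.37 ± 0.20, adjusted p = 2.8e-07). Os07t0131500-00, a kinase of the same run of loci, went down instead, from 3.51 and 6.91 in Nipponbare to 1.43, 2.29 and 2.54 in GW6a-4.6 and to 0, 0.261 and 0 in OsglHAT1-OE. Only 2 reads stood behind it in OsglHAT1-OE, so the 53.0-fold ratio to Nipponbare has a counting interval of 14.0 to 447, and the 22.1-fold ratio to GW6a-4.6 one of 5.67 to 190 (95%, counting error only). The fitted log2 change was -2.47 ± 0.34 (adjusted p = 8.26e-08) in OsglHAT1-OE and -0.97 ± 0.34 (adjusted p = 0.0166) in GW6a-4.6, and the latter call ended without Nipponbare replicate 2 or without GW6a-4.6 replicate 1 (adjusted p up to 0.306).

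Os07t0283125-00, also annotated as a lectin receptor kinase, read 10.2 and 9.60 in Nipponbare, 0.714, 3.44 and 1.81 in GW6a-4.6, and 0, 1.83 and 1.62 in OsglHAT1-OE. Both lines lay below Nipponbare and overlapped each other. Its log2 change was -1.98 ± 0.38 (adjusted p = 3.74e-05) in GW6a-4.6, a call that DESeq2 did not make (adjusted p = 0.0924), and -2.49 ± 0.38 (adjusted p = 6.49e-07) in OsglHAT1-OE. Os04t0531400-01, the legume-type kinase with the highest mean, stepped down from group to group. It stood at 90.1 and 86.4 in Nipponbare, 66.9, 60.4 and 62.1 in GW6a-4.6, and 38.2, 39.1 and 35.5 in OsglHAT1-OE. None of the 3 groups overlapped another, and the falls were 1.40-fold (log2 change -0.48 ± 0.12, adjusted p = 0.00144) and 2.35-fold (-1.21 ± 0.12, adjusted p = 9.97e-11).

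The legume lectin Os07t0100900-01, with no kinase in its annotation, stepped up in the same group order. It read 37.4 and 48.8 in Nipponbare, 71.4, 59.3 and 62.7 in GW6a-4.6, and 112, 92.9 and 91.8 in OsglHAT1-OE. No groups overlapped. It rose 1.49-fold in GW6a-4.6 (log2 change 0.58 ± 0.13, adjusted p = 0.000301) and 2.30-fold in OsglHAT1-OE (1.19 ± 0.13, adjusted p = 5.17e-10), and was the only legume-type member higher in OsglHAT1-OE than in GW6a-4.6 (0.61 ± 0.11, adjusted p = 6.13e-05). The GW6a-4.6 call ended without Nipponbare replicate 1 (adjusted p = 0.0617). A legume lectin that was called nowhere, Os09t0465800-01, read 33.6 and 27.3 in Nipponbare, 31.4, 29.1 and 35.1 in GW6a-4.6, and 32.6, 28.2 and 24.5 in OsglHAT1-OE, all groups overlapping. Its log2 change was 0.07 ± 0.16 in GW6a-4.6 and -0.10 ± 0.16 in OsglHAT1-OE.

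The concanavalin A-like fold is named after a jack bean lectin and is shared with glucanases, so its annotation alone does not show that a protein binds sugar as a lectin. Of 20 such members, 9 rose and 6 fell in GW6a-4.6 (median log2 change 0.24), and 7 rose and 9 fell in OsglHAT1-OE (median -0.13). In GW6a-4.6, 45.0% rose against 26.7% of all loci, and 6 of the 20 fell where 19.5% of all loci did. In OsglHAT1-OE, 35.0% rose and 45.0% fell, where 22.8% and 29.7% of all loci did. Between the lines, none was higher and 11 were lower in OsglHAT1-OE than in GW6a-4.6 (median -0.70), or 55.0% lower. All loci had 7.69% higher and 24.7% lower there, with a median of -0.13. With median-ratio scaling 2 of the 20 were higher and 10 lower, and with quantile normalization 3 were higher and 9 lower. On the log2(value + 1) scale, the largest fall of any member in OsglHAT1-OE was that of Os07t0283050-00, the neighbour of Os07t0283125-00. It read 39.6 and 48.0 in Nipponbare, 6.43, 6.88 and 8.33 in GW6a-4.6, and 1.47, 2.35 and 0.737 in OsglHAT1-OE. No groups overlapped, and the falls were 6.08-fold (log2 change -2.45 ± 0.27, adjusted p = 8.48e-10) and 28.9-fold (-4.20 ± 0.27, adjusted p = 3.72e-16), with a further 4.75-fold between the lines (-1.75 ± 0.24, adjusted p = 2.53e-07).

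On chromosome 4, Os04t0125700-01 and Os04t0110100-01 fell to low values in both lines. The former had 25.5 and 24.8 in Nipponbare, 2.14, 1.15 and 2.54 in GW6a-4.6, and 2.64, 2.09 and 1.62 in OsglHAT1-OE. The lines overlapped each other and fell by 12.9-fold (log2 change -3.18 ± 0.29, adjusted p = 8.68e-12) and 11.9-fold (-3.08 ± 0.29, adjusted p = 1.42e-11). Os04t0110100-01 had 4.97 and 4.22 in Nipponbare, 0.357, 0.382 and 0.362 in GW6a-4.6, and 0.294, 0.261 and 0 in OsglHAT1-OE. With 6 reads over GW6a-4.6 and 4 over OsglHAT1-OE against 56 over Nipponbare, its fitted log2 changes were -2.03 ± 0.34 (adjusted p = 3.92e-06) and -2.25 ± 0.34 (adjusted p = 5.03e-07).

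In the other direction, Os06t0210400-01 read 2.63 and 3.46 in Nipponbare, 18.2, 14.1 and 17.0 in GW6a-4.6, and 8.51, 7.04 and 6.78 in OsglHAT1-OE. GW6a-4.6 was highest and the groups did not overlap, with rises of 5.41-fold (log2 change 2.11 ± 0.24, adjusted p = 2.21e-09) and 2.45-fold (1.06 ± 0.24, adjusted p = 0.000289). Os07t0133100-01 was low throughout, at 1.46 and 0.384 in Nipponbare, 4.46, 5.73 and 6.16 in GW6a-4.6, and 3.52, 3.0 and 1.18 in OsglHAT1-OE. GW6a-4.6 lay above the other groups (log2 change 1.80 ± 0.33, adjusted p = 2.29e-05), whereas OsglHAT1-OE overlapped Nipponbare and its call (0.88 ± 0.33, adjusted p = 0.024) ended without Nipponbare replicate 2 and without OsglHAT1-OE replicate 1 or 2, with an adjusted p of up to 0.384. Os09t0395600-01 rose in both lines, from 15.1 and 19.2 in Nipponbare to 39.3, 37.1 and 40.9 in GW6a-4.6 and 58.6, 50.3 and 37.6 in OsglHAT1-OE. The lines overlapped each other, and the log2 changes were 1.15 ± 0.16 (adjusted p = 2.09e-07) and 1.44 ± 0.16 (adjusted p = 1.22e-09).

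The members of this fold with the highest means both fell in OsglHAT1-OE. Os04t0531500-01, next to the kinase Os04t0531400-01, read 128 and 106 in Nipponbare, 78.2, 77.0 and 71.0 in GW6a-4.6, and 40.2, 40.8 and 36.1 in OsglHAT1-OE. Its groups stepped down without overlap like those of its neighbour, by 1.55-fold (log2 change -0.62 ± 0.12, adjusted p = 5.13e-05) and 3.0-fold (-1.55 ± 0.12, adjusted p = 1.11e-13). Os02t0696500-01 read 116 and 104 in Nipponbare, 90.7, 88.1 and 95.4 in GW6a-4.6, and 63.7, 66.4 and 43.2 in OsglHAT1-OE. It fell 1.90-fold in OsglHAT1-OE (log2 change -0.94 ± 0.13, adjusted p = 1.49e-07), while its change in GW6a-4.6 did not pass the test (-0.26 ± 0.13, adjusted p = 0.102).

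**Figure D2:**
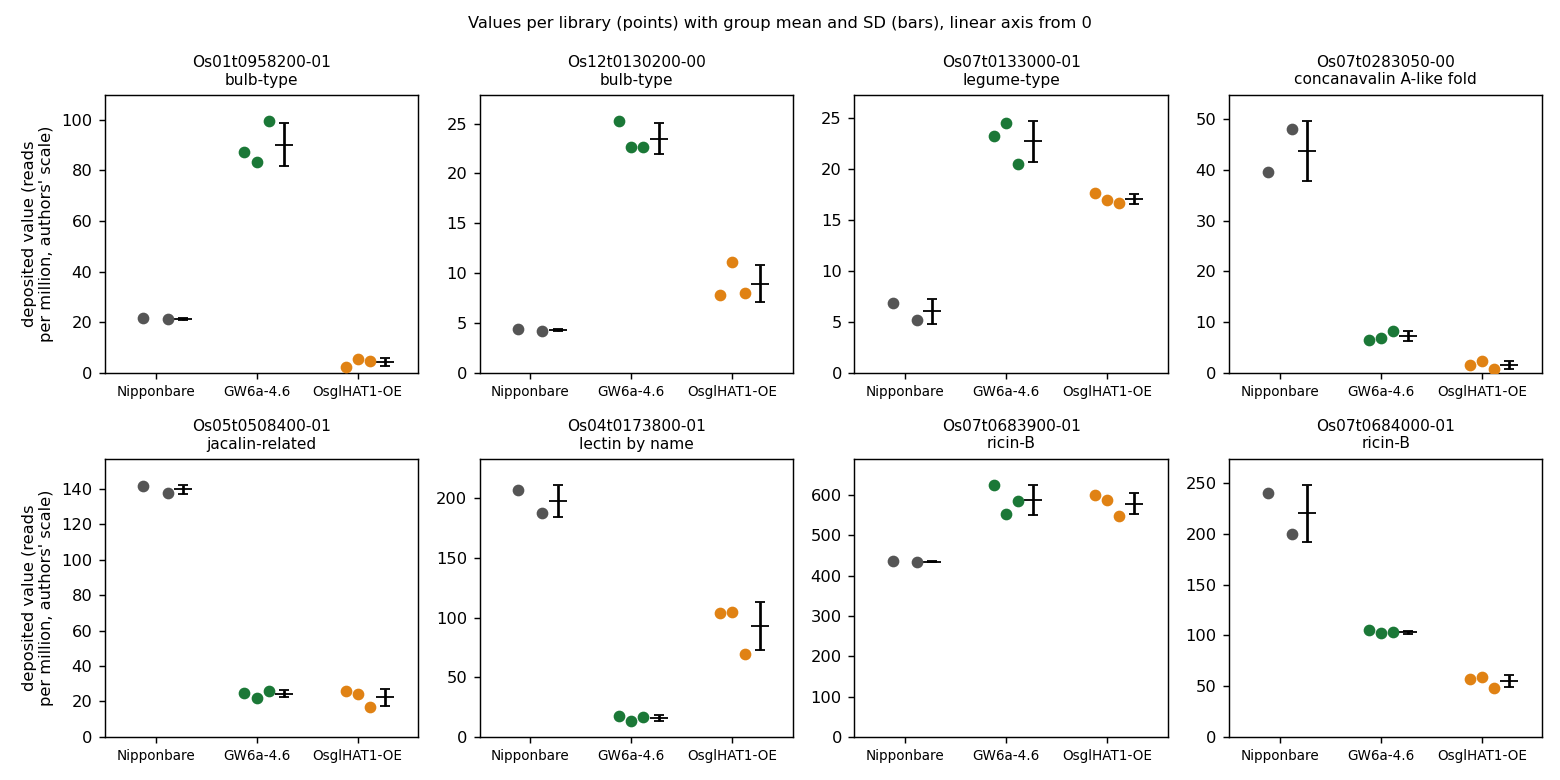
Deposited value in each library (points, linear y axis from 0) of 8 lectin-domain loci in Nipponbare, GW6a-4.6 and OsglHAT1-OE, with bars for the group mean and SD. Os01t0958200-01 is above Nipponbare in GW6a-4.6 and below it in OsglHAT1-OE, Os04t0173800-01 is lowest in GW6a-4.6, and the neighbours Os07t0683900-01 and Os07t0684000-01 move in opposite directions.

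Jacalin-related lectins, which in grasses include mannose-binding proteins induced by salt and jasmonate, split both ways. Of 6 members, 3 rose and 2 fell in GW6a-4.6, and 2 rose and 2 fell in OsglHAT1-OE. In GW6a-4.6, 3 of the 6 rose where 26.7% of all loci did, and 33.3% fell against 19.5%. In OsglHAT1-OE, 33.3% rose and 33.3% fell, where 22.8% and 29.7% of all loci did. These 6 loci are few to set against such shares. The 2 jacalin-related members with the highest means were the ones that fell. Os05t0508400-01 read 142 and 138 in Nipponbare, 25.0, 22.2 and 26.1 in GW6a-4.6, and 25.8, 24.3 and 17.0 in OsglHAT1-OE. Both lines lay far below Nipponbare and overlapped each other, with falls of 5.74-fold (log2 change -2.48 ± 0.16, adjusted p = 4e-16) and 6.27-fold (-2.62 ± 0.16, adjusted p = 6.18e-17), and a difference between the lines of -0.14 ± 0.14 that did not pass the test (adjusted p = 0.479). Os01t0775500-01 had the same pattern, at 28.4 and 26.5 in Nipponbare, 7.85, 6.88 and 7.61 in GW6a-4.6, and 12, 8.35 and 7.81 in OsglHAT1-OE (log2 changes -1.75 ± 0.22 and -1.47 ± 0.22, adjusted p = 2.44e-08 and 6.01e-07). Among the members that rose was Os04t0330200-01, with 0.878 and 0.768 in Nipponbare, 1.61, 4.59 and 2.90 in GW6a-4.6, and 5.72, 4.30 and 3.24 in OsglHAT1-OE. Every library of either line was above Nipponbare. The log2 change was 1.08 ± 0.32 in GW6a-4.6 (adjusted p = 0.00617), a call that ended without Nipponbare replicate 2 (adjusted p = 0.0604), and 1.55 ± 0.32 in OsglHAT1-OE (adjusted p = 0.000113).

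Ricin-B-type members, named for the sugar-binding chain of the castor bean toxin, drew the most reads of the family, though values are not per length. Os03t0327600-01 read 1969 and 1796 in Nipponbare, 1428, 1229 and 1308 in GW6a-4.6, and 1721, 1692 and 1451 in OsglHAT1-OE. The groups did not overlap, with GW6a-4.6 lowest at 1.42-fold below Nipponbare (log2 change -0.51 ± 0.08, adjusted p = 6.03e-07) and OsglHAT1-OE above GW6a-4.6 (0.29 ± 0.07, adjusted p = 0.000842). Its change in OsglHAT1-OE against Nipponbare (-0.22 ± 0.08, adjusted p = 0.0154) did not pass with median-ratio scaling, with edgeR, with no filter on low values, or without Nipponbare replicate 1 or OsglHAT1-OE replicate 3, where its adjusted p reached 0.266. Os07t0683900-01 went up, from 436 and 434 in Nipponbare to 626, 552 and 584 in GW6a-4.6 and 599, 587 and 548 in OsglHAT1-OE (log2 changes 0.43 ± 0.08 and 0.41 ± 0.08, adjusted p = 1.41e-05 and 2.56e-05). The next locus in the table, Os07t0684000-01, chosen after its values were seen, went down from 240 and 200 to 105, 102 and 103 in GW6a-4.6 and 57.2, 59.1 and 48.3 in OsglHAT1-OE. It fell 2.13-fold (log2 change -1.08 ± 0.11, adjusted p = 2.17e-10) and 4.01-fold (-1.98 ± 0.11, adjusted p = 9.31e-18), with no overlap between any groups. The fourth member, Os01t0104400-02, was called in no comparison, at 213 and 208 in Nipponbare, 233, 187 and 224 in GW6a-4.6, and 212, 207 and 196 in OsglHAT1-OE. Its groups overlapped, with log2 changes of 0.02 ± 0.09 and -0.04 ± 0.09.

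Malectin-like domains occur in plant receptor kinases that watch over the cell wall, and are named after an animal protein of the endoplasmic reticulum. Of 8 matched loci only 3 passed the floor, and none of these was called higher in either line. Of all loci 26.7% and 22.8% were, but 3 loci are too few to set against these shares. Os09t0349600-01 had only 3 reads over Nipponbare, 15 over GW6a-4.6 and 19 over OsglHAT1-OE. Its log2 changes of 0.54 ± 0.38 and 0.63 ± 0.38 did not pass the test (limma, adjusted p = 0.259 and 0.171). Os04t0586500-01 read 27.2 and 28.4 in Nipponbare, 15.4, 16.4 and 16.3 in GW6a-4.6, and 6.46, 7.56 and 5.75 in OsglHAT1-OE. It stepped down without overlap, by 1.74-fold (log2 change -0.76 ± 0.20, adjusted p = 0.00229) and 4.22-fold (-1.93 ± 0.20, adjusted p = 2.85e-10). Os09t0356200-01 read 19.2 and 20.0 in Nipponbare, 13.4, 18.2 and 14.5 in GW6a-4.6, and 3.38, 6.26 and 5.01 in OsglHAT1-OE. Its fall was 4.01-fold in OsglHAT1-OE (log2 change -1.84 ± 0.23, adjusted p = 2e-08), and it was lower there than in GW6a-4.6 (-1.49 ± 0.21, adjusted p = 4.07e-07), while the change in GW6a-4.6 did not pass the test (-0.34 ± 0.23, adjusted p = 0.238).

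C-type domains, which bind sugar with the help of calcium in animals, are rare in plants, and only 2 loci carried the annotation. Os01t0104000-01 read 91.7 and 97.4 in Nipponbare, 80.1, 96.9 and 104 in GW6a-4.6, and 119, 122 and 102 in OsglHAT1-OE. Its small rise in OsglHAT1-OE (log2 change 0.27 ± 0.11, adjusted p = 0.0443) was lost in 6 of the 18 alternatives. Os06t0296700-01 read 14.5 and 9.99 in Nipponbare, 17.5, 19.9 and 16.8 in GW6a-4.6, and 5.14, 10.7 and 7.37 in OsglHAT1-OE. GW6a-4.6 lay above both other groups, but its change against Nipponbare did not pass the test (log2 change 0.55 ± 0.24, limma, adjusted p = 0.0588). The difference between the lines at this locus was 2.34-fold (log2 difference -1.17 ± 0.21, adjusted p = 3.6e-05). Its change in OsglHAT1-OE against Nipponbare (-0.63 ± 0.24, adjusted p = 0.0255) was lost in 5 of the 18 alternatives.

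The 7 loci named as lectins outside these classes are annotated as lectins, among them chitin-binding ones, or as similar to an apyrase-like protein. In GW6a-4.6, 2 rose and 4 fell, and in OsglHAT1-OE 1 rose and 2 fell. That was 28.6% and 57.1% against 26.7% and 19.5% of all loci, and 14.3% and 28.6% against 22.8% and 29.7%. Between the lines, 3 were higher and 1 was lower in OsglHAT1-OE than in GW6a-4.6, or 42.9% and 14.3% against 7.69% and 24.7% of all loci. Whether classes differ in this was not tested. Os04t0173800-01, annotated as an agglutinin precursor, had the largest fall of any member in GW6a-4.6 on the log2(value + 1) scale. It read 207 and 188 in Nipponbare, 17.5, 13.4 and 16.7 in GW6a-4.6, and 104, 105 and 69.4 in OsglHAT1-OE. All groups were apart, with OsglHAT1-OE in the middle. The fall was 12.5-fold in GW6a-4.6 (log2 change -3.57 ± 0.15, adjusted p = 8.57e-22) and 2.13-fold in OsglHAT1-OE (-1.11 ± 0.15, adjusted p = 4.51e-08), and OsglHAT1-OE exceeded GW6a-4.6 by 5.86-fold (2.46 ± 0.13, adjusted p = 4.92e-18).

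Os04t0493600-01, annotated as similar to lectin-C, a pokeweed chitin-binding lectin, fell in both lines. It read 257 and 269 in Nipponbare, 88.2, 75.3 and 86.9 in GW6a-4.6, and 114, 114 and 86.1 in OsglHAT1-OE. The falls were 3.15-fold (log2 change -1.65 ± 0.11, adjusted p = 3.75e-15) and 2.51-fold (-1.33 ± 0.11, adjusted p = 9.94e-13), and the lines overlapped. Its difference between the lines (0.31 ± 0.10, adjusted p = 0.0145) was lost when GW6a-4.6 replicate 2 or OsglHAT1-OE replicate 1 or 2 was left out (adjusted p up to 0.103). Os01t0821700-01, similar to a chitin-binding lectin of potato, read 138 and 146 in Nipponbare, 157, 168 and 174 in GW6a-4.6, and 176, 184 and 169 in OsglHAT1-OE. It rose 1.24-fold in OsglHAT1-OE (log2 change 0.31 ± 0.09, adjusted p = 0.00515), a call lost without Nipponbare replicate 1 (adjusted p = 0.0774), and its call in GW6a-4.6 (0.23 ± 0.09, adjusted p = 0.042) was lost in 8 of the 18 alternatives. Os11t0439600-01 resembles a legume root apyrase that binds the Nod factors of nodulating bacteria. It read 88.9 and 88.7 in Nipponbare, 63.5, 65.8 and 60.9 in GW6a-4.6, and 82.6, 91.2 and 79.3 in OsglHAT1-OE. GW6a-4.6 lay below both other groups, and OsglHAT1-OE overlapped Nipponbare. It fell in GW6a-4.6 (log2 change -0.48 ± 0.11, adjusted p = 0.000533), and the lines differed (0.41 ± 0.10, adjusted p = 0.00171).

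The 3 plectin-related loci are no lectins by their name. Os07t0642800-01 rose from 35.1 and 35.3 in Nipponbare to 90.7, 92.9 and 86.6 in GW6a-4.6 and 88.9, 88.2 and 73.7 in OsglHAT1-OE (log2 changes 1.33 ± 0.12 and 1.22 ± 0.12, adjusted p = 5.15e-12 and 3.38e-11). Os03t0364500-01 rose from 55.3 and 56.5 to 109, 107 and 103 and to 100, 99.1 and 85.9 (0.92 ± 0.11 and 0.75 ± 0.11, adjusted p = 6.65e-09 and 3.02e-07). The third, Os01t0805700-02, was called nowhere, at 121 and 143 in Nipponbare, 133, 140 and 146 in GW6a-4.6, and 131, 140 and 116 in OsglHAT1-OE. With these loci left out, a choice made after seeing the data, 25 of 79 members rose and 22 fell in GW6a-4.6, and 18 rose and 32 fell in OsglHAT1-OE. That was 31.6% and 27.8% against 26.7% and 19.5% of all loci, and 22.8% and 40.5% against 22.8% and 29.7%.

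Lectin genes often lie side by side, and 34 of the 82 members were among 41 matched loci in 16 runs, in which no more than 10 other loci lie between matched neighbours in the order of identifiers. Reads that match neighbouring near-identical copies may have been counted at each of them, which can make neighbours look alike. The loci named in this paragraph beyond those above were chosen after their values were seen. In the largest run, on chromosome 7, 5 receptor kinases and a concanavalin A-like protein stood together, and they did not move as 1 block. In OsglHAT1-OE, Os07t0129900-00 (log2 change -0.85 ± 0.33, adjusted p = 0.0273), Os07t0130400-01 (-0.86 ± 0.26, adjusted p = 0.006) and Os07t0131500-00 fell, and Os07t0129800-00 did not pass the test (-0.56 ± 0.33, adjusted p = 0.166). The remaining members of the run, Os07t0133000-01 and Os07t0133100-01, rose as described. On chromosome 3, Os03t0772600-01 rose from 8.04 and 11.1 in Nipponbare to 26.8, 31.0 and 28.3 in GW6a-4.6 and 16.1, 15.4 and 14.7 in OsglHAT1-OE. Its neighbour Os03t0772700-00 read 3.07 and 1.73, then 1.07, 2.48 and 0.543, then 0.734, 0.130 and 0, and fell in OsglHAT1-OE (-1.41 ± 0.37, adjusted p = 0.00142). On chromosome 12, Os12t0130500-00 rose in GW6a-4.6 like its neighbour Os12t0130200-00 (1.37 ± 0.29, adjusted p = 0.000193), whereas Os12t0130100-01 on the other side did not pass the test (-0.03 ± 0.30, adjusted p = 0.954). Of the 6 members on chromosome 6, none lay within 50 loci of GW6a, the nearest, Os06t0575000-00, being 415 loci away.

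**Figure D3:**
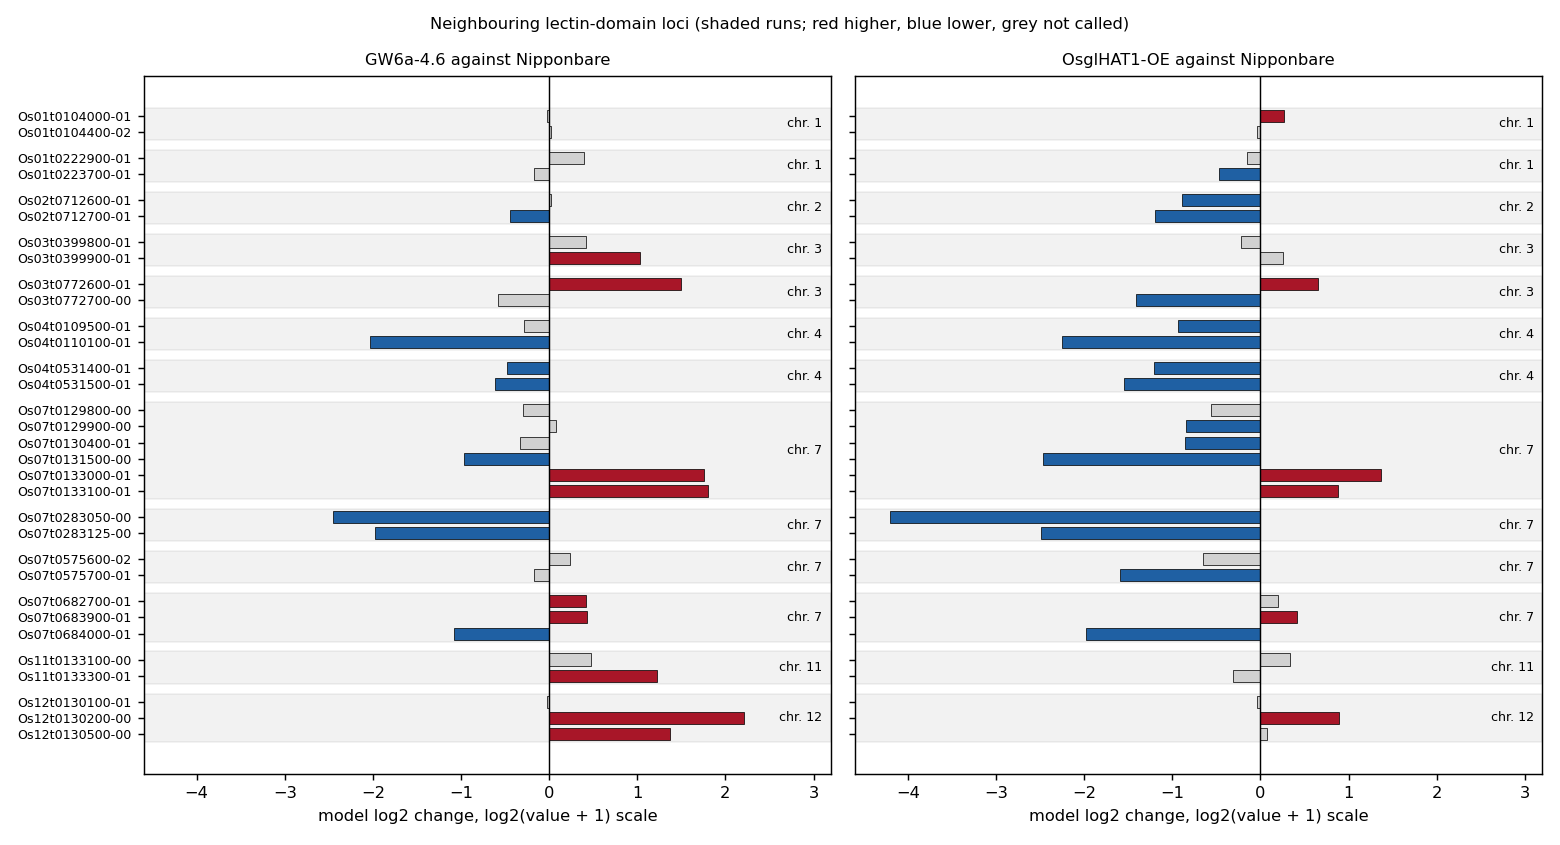
Model log2 change (x axis, log2 of value plus 1) against Nipponbare in GW6a-4.6 (left) and OsglHAT1-OE (right) of lectin-domain loci that lie in runs of at least 2 tested members (shaded blocks, chromosome at the right), with red bars called higher, blue called lower and grey not called. Members of the chromosome 7 run from Os07t0129800-00 to Os07t0133100-01 point both ways, while Os07t0283050-00 and Os07t0283125-00 are both lower in both lines.

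Other surface receptors and signalling proteins gave a setting for these counts. Of all loci, 26.7% rose and 19.5% fell in GW6a-4.6, and 22.8% rose and 29.7% fell in OsglHAT1-OE. Between the lines, 7.69% of all loci were higher and 24.7% lower in OsglHAT1-OE. LysM proteins, which include receptors for fungal chitin, held 13 tested loci, of which 3 rose and 7 fell in GW6a-4.6 and 3 rose and 8 fell in OsglHAT1-OE. These loci had shares of 23.1% higher and 53.8% lower, then 23.1% and 61.5%. Os06t0729900-00 among them went from 47.7 ± 5.84 (SD, n = 2) to 15.9 ± 0.463 (SD, n = 3) and 12.3 ± 2.18 (SD, n = 3), and Os03t0133400-01 from 280 ± 7.57 to 126 ± 2.62 and 101 ± 8.03. Wall-associated kinases, which bind pectin, held 12 loci, of which 3 rose and 1 fell in GW6a-4.6, 2 rose and 6 fell in OsglHAT1-OE, and 7 were lower and none higher between the lines. Of the neighbours Os04t0598800-01 and Os04t0598900-01, the former rose from 2.47 ± 0.232 to 16.4 ± 3.34 and 7.18 ± 1.37, and the latter fell from 40.5 ± 3.04 to 7.12 ± 1.23 and 1.71 ± 0.553. Cysteine-rich and antifungal-domain proteins held 34 loci, of which 13 rose and 6 fell in GW6a-4.6 and 8 rose and 10 fell in OsglHAT1-OE. In GW6a-4.6 that was 38.2% higher and 17.6% lower. In OsglHAT1-OE it was 23.5% and 29.4%, near the shares of all loci. The DUF26 protein Os04t0659300-01 rose from 12.8 ± 1.78 to 2797 ± 341 in GW6a-4.6 and 819 ± 117 in OsglHAT1-OE, by 219-fold and 64.1-fold.

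Leucine-rich repeat kinases with both words in the annotation held 6 loci, of which 2 rose and 2 fell in each line, among them Os01t0818600-01, which fell from 73.4 ± 1.35 to 46.1 ± 1.82 and 24.6 ± 2.69. In this list 33.3% rose and 33.3% fell in each line, beside the shares of all loci given above. Downstream of such receptors, 1 of 6 NADPH oxidases, the enzymes of the oxidative burst, rose and 2 fell in GW6a-4.6, and 1 rose and 4 fell in OsglHAT1-OE. Their shares were 16.7% higher and 33.3% lower, then 16.7% and 66.7%. Os12t0541300-01, similar to respiratory burst oxidase B, rose from 9.41 ± 0.548 to 49.2 ± 1.80 and 18.9 ± 2.51. Of 32 loci annotated as MAP kinases or their activators, 11 rose and 8 fell in GW6a-4.6, and 8 rose and 11 fell in OsglHAT1-OE. These were 34.4% and 25.0% against 26.7% and 19.5% of all loci, and 25.0% and 34.4% against 22.8% and 29.7%. Os03t0285800-01 fell from 115 ± 2.84 to 49.8 ± 0.721 and 19.9 ± 6.11. Calreticulins and calnexins, lectin chaperones of the secretory pathway that fold glycoproteins, held 6 loci, of which 4 rose and 1 fell in GW6a-4.6 and 3 rose and 3 fell in OsglHAT1-OE. The calreticulin Os07t0246200-01 rose from 353 ± 22.8 to 783 ± 20.0 and 880 ± 28.0, whereas Os01t0895600-01, similar to calreticulin-3, averaged 362 ± 3.73, 324 ± 6.79 and 195 ± 17.6.

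**Figure D4:**
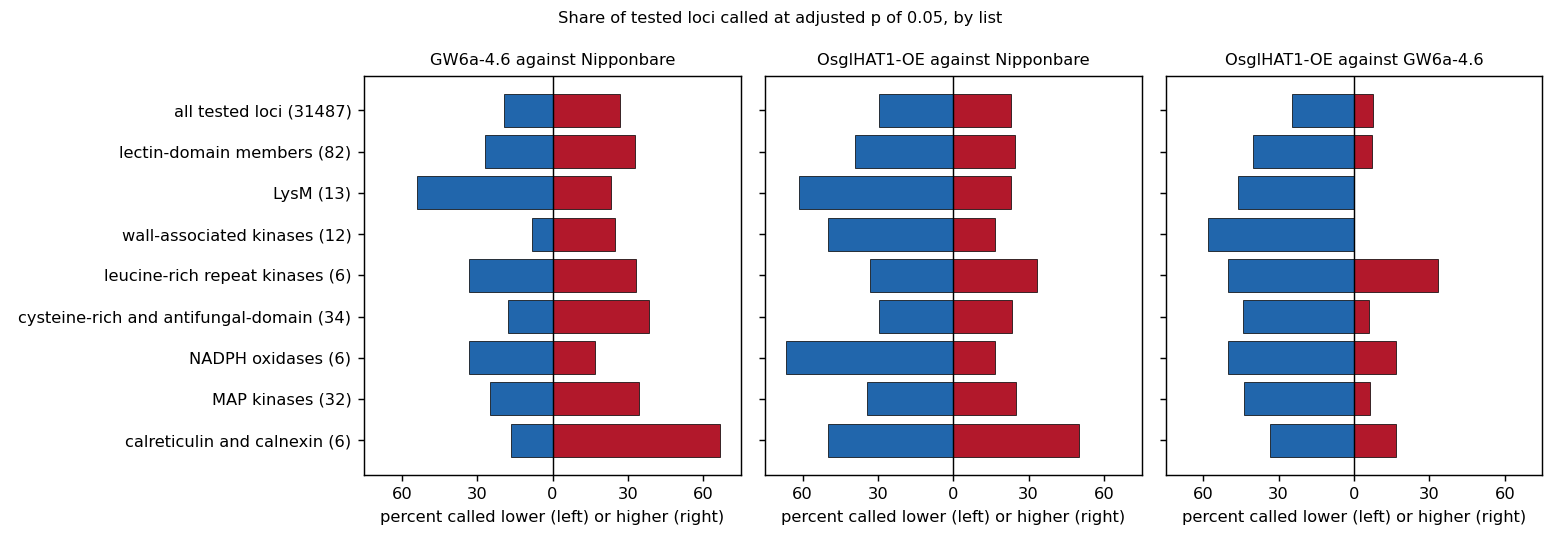
Share of tested loci called lower (blue, to the left) or higher (red, to the right), in percent, for all tested loci, the lectin-domain loci and 7 lists of other surface and signalling proteins (rows, number tested in parentheses) in the 3 comparisons. The lectin-domain loci stand at 40.2% lower and 7.32% higher between the lines, beside 24.7% and 7.69% of all loci, and wall-associated kinases and LysM proteins have no red bar there.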

How the data were processed

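Transcripts of rice shoot apical meristem were counted in 2 Nipponbare, 3 GW6a-4.6 and 3 OsglHAT1-OE libraries. The submitters' processing notes name Bowtie, edgeR and the build IRGSP-1.0 but give no version and no role for any of them. The authors deposited 1 signal per transcript model, named RPM per the file headers. Every value was a whole multiple of 1 read (tolerance 0.01), which gave back the read counts. Since the columns sum to 2411271 to 2690367, more than RPM in the strict sense, a read may count at several models, and near-identical copies may share reads.

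The highest-mean model per locus was kept, with loci at 1 or more in 2 libraries tested. The main test was limma 3.58.1 in R 4.3.3 with a trended prior, on log2(value + 1) with a mean per group over all 8 libraries. P-values were adjusted by Benjamini-Hochberg over 31487 loci. Log2 changes are on that scale and understate the change of low genes, and folds are ratios of group means. Where a group held 1 to 3 reads in all, its ratio carries an exact binomial counting interval (95%). Transcript lengths were not used here, so levels of different genes are not per length. The scripts were tested on simulated data.

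The members and lists were chosen with earlier results of these data known. The rule for naming took the 6 largest called rises and falls per line and the 4 largest each way between the lines, all without overlap of libraries. It also took the 2 highest-mean members per class and the 3 highest-mean members called nowhere. From each list of other proteins it took up to 2 loci with the smallest adjusted p in each line. Classes follow the annotation text. The pattern for bulb-type lectins was widened to D-mannose binding without a hyphen, and loci outside the patterns were divided into lectins by name and plectin-related, after the annotations were read. Alternatives were other pseudocounts, filters and scalings, summed models, edgeR 4.0.16 and DESeq2 1.42.0 on the recovered reads, a replicate block, and leaving out each library. Replicate numbers were not used as pairs.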

Additional observations from a re-analysis of the deposited data

Results flagged for a closer look

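The bulb-type lectin locus Os01t0958200-01 was singled out because its difference from Nipponbare went up in all 3 GW6a-4.6 libraries and down in all 3 OsglHAT1-OE libraries, and the test of the difference between the lines passed. The log2 difference of OsglHAT1-OE from GW6a-4.6 was -4.20 ± 0.18 (limma, adjusted p = 1.27e-20). Both lines share the Nipponbare libraries, but the difference between them does not use those libraries' values except through the pooled spread.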

How the results depend on the processing

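Scaling between libraries moved the comparison of OsglHAT1-OE with GW6a-4.6. Over all loci, 2422 were higher and 7787 lower in the deposited values. With median-ratio scaling 5893 were higher, with quantile normalization 6169 were higher and 5190 lower, with edgeR 6063 were higher, and with DESeq2 5045 were higher and 5107 lower. Leaving out 1 library gave 1590 to 3259 higher, the lowest without OsglHAT1-OE replicate 1. Of the lectin-domain loci, 6 were higher and 33 lower, becoming 10 higher with median-ratio scaling and 13 higher and 21 lower with quantile normalization. Leaving out either Nipponbare library gave 18 or 19 members higher in GW6a-4.6 against 27, the largest loss among the libraries left out. The members' median log2 change in GW6a-4.6 was -0.04 with quantile normalization against 0.07. The median of all loci moved with it, to -0.02 from 0.07, so relative to all loci the members' median was -0.03 against 0.01. The cause of these shifts was not tested. No label says that a replicate number pairs libraries. Deviations from the group mean correlated at -0.00256 to 0.0648 between same-numbered libraries and at -0.0648 to 0.0309 between differently numbered ones. Whether the numbers mark a shared plant, batch or day was not tested. With the replicate number as a block, members higher and lower were 26 and 21 in GW6a-4.6, 19 and 32 in OsglHAT1-OE and 6 and 33 between the lines. Of 1935 recomputed calls of single named loci, 57 lost and 20 gained a call and none changed direction while called. Loci near a value of 1 rest on a few reads per library, so their changes are less precise.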

Other observations

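The following members were chosen after their values were seen. The lectin receptor kinase Os07t0575700-01 fell 3.5-fold in OsglHAT1-OE (log2 change -1.59 ± 0.27, limma, adjusted p = 4.4e-06), with -0.17 ± 0.27 in GW6a-4.6 (adjusted p = 0.64), and was lower in OsglHAT1-OE than in GW6a-4.6 (-1.42 ± 0.24, adjusted p = 1.14e-05). The concanavalin A-like locus Os11t0661800-01 fell 3.39-fold (-1.53 ± 0.27, adjusted p = 1.09e-05), with -0.21 ± 0.27 in GW6a-4.6 (adjusted p = 0.556) and a difference between the lines of -1.32 ± 0.24 (adjusted p = 4.74e-05). Os10t0577500-01 of the same fold fell in both lines, by 1.77-fold and 4.46-fold, and was lower in OsglHAT1-OE than in GW6a-4.6 (-1.12 ± 0.23, adjusted p = 0.000151).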
